A study of Mus musculus with 9 samples.

Results

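Each T cell carries a receptor made of an alpha and a beta chain, and each chain is built by joining 1 of many variable (V) segments to a joining segment and a constant gene. The V segments of the alpha chain are named Trav and those of the beta chain Trbv in the mouse. All entries of the table whose symbol begins with Trav or Trbv were taken, 129 of 37801 entries used: 106 Trav and 23 Trbv segments. Joining segments and constant genes were left out. In a bulk sample, the level of a V segment adds up all T cells whose rearranged receptor carries it, so the shares of the segments describe how the T cells as a group use the locus. A V segment level cannot tell many small clones from a few large ones that share a segment. The level is relative to all RNA of the library. Fewer T cells, a smaller share of T cells among all cells and less receptor RNA per T cell thus cannot be told apart.

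RNA was measured in 9 libraries of 3 groups with 3 libraries each. WT mice were labelled FVB/NJ with wild-type NRAS and wild-type MHCII, and the study describes its wild-type controls as albino littermates without the transgene. Tyr-NrasQ61K mice, labelled as an FVB/NJ cross, carry an NRAS Q61K transgene that the tyrosinase promoter drives in melanocytes, have wild-type MHCII and are titled Cre-negative. Tyr-NrasQ61K MHCII-KO mice carry the same transgene on a cross and are titled Cre-positive and MHCII-negative. Neither the labels nor the study's methods name the promoter of the Cre, the MHCII gene deleted, the cells that lost it or the ages of these mice. The MHCII gene H2-Ab1 was at 101 to 183 FPKM in WT, from 149 to 276 in Tyr-NrasQ61K and from 108 to 271 in MHCII-KO libraries, and H2-Aa was at 667 to 1091, 276 to 802 and 362 to 634 FPKM. Both MHCII genes thus overlapped between the transgenic groups, and H2-Aa lay below WT in MHCII-KO. Nras, at 10.3 to 14.7, 5.55 to 14.4 and 7.48 to 11.1 FPKM in the 3 groups, did not mark the transgene. The labels name nevus melanocytes as the source and the study names lymph nodes. T cells were present by their markers: 10 T cell markers summed to 165 to 409 FPKM, whereas 6 melanocyte markers summed to 3.64 to 16.8 FPKM. FPKM are fragment counts divided by transcript length and by the mapped fragments of the library, and they do not show how many reads a value rests on. Replicate 2 of Tyr-NrasQ61K and replicate 2 of MHCII-KO stood apart in these segments, with 41 and 30 of 106 Trav segments listed at 0 against 4 to 13 in the other 7 libraries. Sums, evenness, medians and counts of separated segments are also given without both. All libraries, WT included, held transcripts of the stretch from Trbv12-1 to Trbv17, which FVB/N mice are known to lack, and in this they went against the FVB/NJ label.

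Most Trav segments lie in a stretch of chromosome 14 that is repeated, so that many exist as copies named with a d or an n. The 105 Trav segments that could be placed lay on mm10 chromosome 14 from 52427928 to 53876752, and the 23 Trbv segments on chromosome 6 from 40891229 to 41558452. The coding part of a V segment had a median length of 341 bases for Trav and 344 for Trbv. The 60 coding bases at the 3′ end of the segments on which the results turn are shown here from the GENCODE M21 transcripts of GRCm38 (mm10). In each of them the capitals mark the last in-frame TGT codon, which encodes the conserved cysteine that opens the third complementarity-determining region, the part of the receptor that meets the peptide. The first set are beta segments that led usage or differed most between groups, with Trbv13-1, Trbv13-2 and Trbv13-3 as the leading family. They lie on the plus strand at chr6:41116409-41116468, chr6:41121773-41121832, chr6:41130526-41130585, chr6:41152171-41152230, chr6:41163497-41163556 and chr6:41062744-41062803 in the order shown.
Trbv13-1: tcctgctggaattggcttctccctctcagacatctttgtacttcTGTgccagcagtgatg
Trbv13-2: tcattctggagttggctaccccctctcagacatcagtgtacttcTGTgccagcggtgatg
Trbv13-3: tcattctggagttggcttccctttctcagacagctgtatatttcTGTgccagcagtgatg
Trbv16: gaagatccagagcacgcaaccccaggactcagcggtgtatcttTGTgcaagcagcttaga
Trbv17: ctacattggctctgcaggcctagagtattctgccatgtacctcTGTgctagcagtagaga
Trbv5: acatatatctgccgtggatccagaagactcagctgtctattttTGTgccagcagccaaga

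The second set shows why single Trav copies are uncertain. It holds the most used alpha segment, Trav13-1, a pair of copies of its family, and both copies of Trav11, the segment of invariant natural killer T cells. They lie on the plus strand at chr14:53545466-53545525, chr14:52943230-52943289, chr14:53254258-53254317, chr14:53519800-53519859 and chr14:52824853-52824912 in the order shown.
Trav13-1: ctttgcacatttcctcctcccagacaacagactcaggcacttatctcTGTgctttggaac
Trav13d-2: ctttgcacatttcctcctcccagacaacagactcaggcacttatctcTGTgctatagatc
Trav13n-2: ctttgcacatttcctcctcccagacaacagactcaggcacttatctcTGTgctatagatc
Trav11: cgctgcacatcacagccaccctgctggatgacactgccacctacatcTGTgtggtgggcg
Trav11d: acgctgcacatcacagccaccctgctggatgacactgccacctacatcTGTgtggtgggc
Trav13d-2 and Trav13n-2 were identical over all 331 coding bases, and Trav11 and Trav11d over 342, with windows that end 1 base apart because their annotated coding parts differ in length by 1 base. In all, 14 pairs of Trav segments had the same coding sequence, and 8 pairs, leaving out segments at 0 throughout, had the same FPKM in all 9 libraries to within 1e-06. A read from such a pair could be given to either copy. No pair of Trbv segments had the same coding sequence. Within the Trbv13 family the identity was 84.6% for Trbv13-1 with Trbv13-2, 82.8% for Trbv13-1 with Trbv13-3 and 90.6% for Trbv13-2 with Trbv13-3.

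The mean summed Trbv level was lower in both transgenic groups than in WT and the mean Trav level less so, without passing a test over the 3 groups. In the WT libraries the Trbv segments summed to 198, 135 and 246 FPKM, in the Tyr-NrasQ61K libraries to 79.6, 53.1 and 169, and in the MHCII-KO libraries to 108, 41.9 and 84.4. The 3 MHCII-KO libraries all lay below the 3 WT libraries, whereas Tyr-NrasQ61K replicate 3 lay inside the WT range. Replicate 2 was the lowest library of every group, WT included, and each transgenic library lay below the WT library of the same number. Whether the numbers pair the libraries is not stated, and the permutation tests did not use them. The Trbv means were 193 ± 55.6 FPKM (SD, n = 3) in WT, 101 ± 60.7 (SD, n = 3) in Tyr-NrasQ61K and 78.2 ± 33.6 (SD, n = 3) in MHCII-KO. On the log2 scale Tyr-NrasQ61K differed from WT by -1.07, a ratio of 0.477 between geometric means, and MHCII-KO differed from WT by -1.37, a ratio of 0.387. Over the 3 groups these sums did not differ beyond the spread between libraries by the exact permutation test of the F statistic (p = 0.129, 0.625 after Benjamini-Hochberg adjustment over 7 measures). The smallest p that this test allows is 0.00357. The two-sided exact permutation p was 0.2 for Tyr-NrasQ61K against WT and 0.1 for MHCII-KO against WT, and 3 libraries against 3 cannot give less than 0.1. Without Tyr-NrasQ61K replicate 2 and MHCII-KO replicate 2 the log2 differences from WT were -0.69 and -0.97 (exact permutation p = 0.257 over the 3 groups), and without Tyr-NrasQ61K replicate 3, the highest of its group, the exact permutation p over the 3 groups was 0.0464. No label ties a library to an animal of its own, so the p-values here reflect the spread among these libraries, which may be technical.

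**Figure D1:**
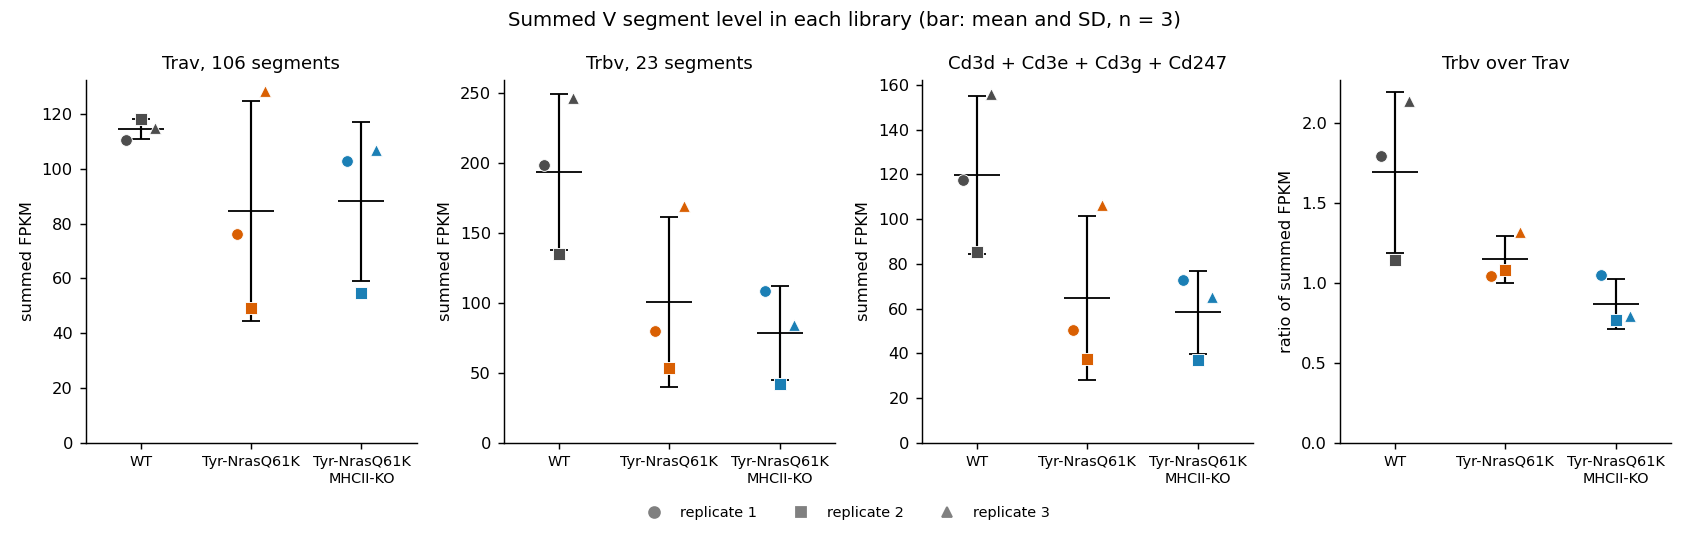
Summed FPKM of the 106 Trav segments, of the 23 Trbv segments and of Cd3d, Cd3e, Cd3g and Cd247, and the ratio of the Trbv to the Trav sum, in each of the 9 libraries. Symbols give the replicate, and bars give the mean and SD of 3 libraries. In these FPKM, without median-ratio scaling, the MHCII-KO libraries lie below all WT libraries in each panel. Replicate 2 is the lowest library of every group for the Trbv sum and of each transgenic group for the Trav sum.

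In WT the Trav segments summed to 111, 118 and 115 FPKM, in Tyr-NrasQ61K to 76.2, 49.1 and 128, and in MHCII-KO libraries to 103, 54.8 and 107. In unscaled FPKM the 3 MHCII-KO libraries lay below the 3 WT libraries here too, and the WT libraries lay close together, with a mean of 115 ± 3.74 FPKM (SD, n = 3) in WT, 84.6 ± 40.2 (SD, n = 3) in Tyr-NrasQ61K and 88.2 ± 29.0 (SD, n = 3) in MHCII-KO. The divisors of median-ratio scaling were 1.21, 0.945 and 1.21 in WT and 0.976, 0.832 and 0.988 in MHCII-KO libraries. Divided by them, the Trav sums of MHCII-KO and WT overlapped and the WT sums no longer lay close together. The Trbv sums of MHCII-KO stayed below WT. The log2 differences from WT were -0.55 for Tyr-NrasQ61K (two-sided exact permutation p = 0.4) and -0.44 for MHCII-KO (exact permutation p = 0.1), and the exact permutation test over the 3 groups gave p = 0.486 (0.625 adjusted). Single libraries moved these differences: without both libraries that stood apart they were -0.21 and -0.13, without Tyr-NrasQ61K replicate 3 the first was -0.90, and without MHCII-KO replicate 3 the second was -0.61. The Trbv sum was 1.79, 1.14 and 2.14 times the Trav sum in WT, 1.04, 1.08 and 1.32 times in Tyr-NrasQ61K and 1.05, 0.765 and 0.791 times in MHCII-KO libraries. The MHCII-KO ratios lay below all 3 WT ratios, and those of Tyr-NrasQ61K overlapped with WT. No test was run on this ratio.

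The CD3 chains, which carry the signal of the receptor into the cell, moved with the Trbv sum. Cd3d, Cd3e, Cd3g and Cd247 together were at 118, 85.2 and 156 FPKM in WT, 50.4, 37.3 and 106.4 in Tyr-NrasQ61K, and 72.7, 37.1 and 64.9 in MHCII-KO libraries. The Trbv sum per summed CD3 was 1.58 to 1.69 in WT, from 1.42 to 1.59 in Tyr-NrasQ61K and from 1.13 to 1.49 in MHCII-KO libraries. Divided in this way, the log2 difference of the Trbv sum from WT was -0.08 for Tyr-NrasQ61K and -0.31 for MHCII-KO (exact permutation p = 0.0536 over the 3 groups), while that of the Trav sum turned to 0.44 and 0.61 (exact permutation p = 0.0857). Without the 2 libraries that stood apart these values were -0.03 and -0.21 for Trbv and 0.45 and 0.63 for Trav. FPKM are relative to the library and do not count cells. By cell counts, the study reports more CD3+ T cells per mouse in pooled lymph nodes of Tyr-NrasQ61K than of WT mice. Within the CD3 sum the genes did not move alike. Cd3g was at 36.6 to 75.6 FPKM in WT and at 4.29 to 47.8 in the transgenic libraries, with log2 fold changes of -1.71 and -1.85, whereas those of Cd3e were 0.27 and 0.30, and limma called neither gene (adjusted p of at least 0.329).

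Constant genes, which the rearranged chains of a locus share, were read for both loci. Trbc1 and Trbc2, the beta constant genes, together were at 217, 138 and 230.2 FPKM in WT, 94.9, 88.6 and 166 in Tyr-NrasQ61K, and 127, 77.3 and 116 in MHCII-KO libraries. Trac, the alpha constant gene, was at 30.2, 26.4 and 40.7 FPKM in WT, at 27.6, 25.4 and 46.0 in Tyr-NrasQ61K and at 34.4, 17.9 and 34.0 in MHCII-KO libraries. The Trac values overlapped between all groups, while the MHCII-KO values of Trbc1 and Trbc2 lay below those of WT. The log2 fold change of Trbc2 was -0.78 (standard error 0.352) for Tyr-NrasQ61K and -0.89 (standard error 0.352) for MHCII-KO against WT, neither of which limma called, and those of Trac were -0.0016 and -0.20. None of the 14 receptor and signalling genes that passed the filter, from Cd3d to Dntt, was called by limma in any of the 3 comparisons, with 5 of them (Cd247, Cd3d, Cd4, Cd8a and Dntt), 3 (Cd247, Cd3g and Trbc2) and 0 at an unadjusted p under 0.05, next to 15.2%, 15% and 1.52% of all genes tested. Cd4, the coreceptor for MHC class II, was at 30.4 to 59.7 FPKM in WT, from 56.0 to 176 in Tyr-NrasQ61K and from 63.8 to 105 in MHCII-KO libraries (adjusted p = 0.328 and 0.370 from limma). Cd8a, a chain of the coreceptor for MHC class I, was at 17.6 to 21.4, 10.4 to 15.7 and 9.91 to 18.5 FPKM in the 3 groups. Lck, Zap70 and Lat, which relay the receptor signal, had log2 fold changes between -0.39 and -0.15 in both comparisons with WT. Of the genes of receptor assembly in the thymus, Ptcra, the partner of the unpaired beta chain, was listed at 0 in all 9 libraries, Rag2 did not exceed 0.26 FPKM, and Rag1 and Dntt did not exceed 1.35 and 1.83.

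Tested one at a time, no V segment was called in any comparison. Of the 129 segments, 79 had at least 1 FPKM in at least 3 libraries and were tested, 60 Trav and 19 Trbv, in a limma fit on log2(FPKM + 1) of 16587 genes. With p-values adjusted over all genes of this fit and a threshold of 0.05, 0 segments were higher or lower in Tyr-NrasQ61K than in WT, against 0.163% and 0.0723% of all genes tested. In MHCII-KO against WT 0 segments were called, against 0.0784% higher and 0.0663% lower of all genes, and in MHCII-KO against Tyr-NrasQ61K 0 segments, against 0.0121% and 0.0362%. At rates this low, 0 calls among 79 segments do not set them apart from other genes. By unadjusted limma p under 0.05, 8 segments were lower in Tyr-NrasQ61K and 10 in MHCII-KO than in WT and none was higher. By chain these were 4 and 8 of the 19 Trbv segments (21.1% and 42.1%). They were 4 and 2 of the 60 Trav segments (6.67% and 3.33%). Between the transgenic groups 4 segments were higher and 1 lower in MHCII-KO than in Tyr-NrasQ61K, all of them Trav. Among all genes tested, 6.79% were higher and 8.43% lower in Tyr-NrasQ61K than in WT by that measure, 3.57% higher and 11.5% lower in MHCII-KO than in WT, and 0.235% higher and 1.28% lower in MHCII-KO than in Tyr-NrasQ61K.

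The direction was shared along the whole beta locus. Over all 23 Trbv segments, 22 had a lower mean of log2(FPKM + 1) than WT in both transgenic groups, and the remaining one, Trbv21, was listed at 0 in all 9 libraries. The median Trbv difference was -0.80 for Tyr-NrasQ61K and -1.18 for MHCII-KO, next to -0.12 and -0.22 over the 16587 genes tested. Over the 106 Trav segments, 79 and 80 lay below WT, with medians of -0.27 and -0.16. Of the 16587 genes tested, 9803 and 11191 lay below WT, so most genes shared this direction too. Segments were measured in the same libraries and are not independent of each other. Over the segments that passed the filter alone, the medians were -0.91 and -1.20 for Trbv and -0.32 and -0.19 for Trav. After median-ratio scaling, which moved the median of all genes to 0.01 and -0.01, the medians of the tested Trbv segments were -0.77 and -0.97, and those of the tested Trav segments -0.28 and -0.07. With quantile normalization they were -0.81 and -0.98 for Trbv and -0.34 and -0.13 for Trav. Without the 2 libraries that stood apart the medians of the tested segments were -0.50 and -0.76 for Trbv and -0.11 and -0.05 for Trav. Between the transgenic groups 17 Trbv segments were lower and 4 higher in MHCII-KO than in Tyr-NrasQ61K, and 2 were equal. Of the 16587 genes tested, 11275 were lower and 5312 higher, so most genes shared this direction. The median was -0.19 for Trbv next to -0.08 over all genes. Both transgenic groups were compared with the same WT libraries, so the 2 comparisons with WT are not independent.

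**Figure D2:**
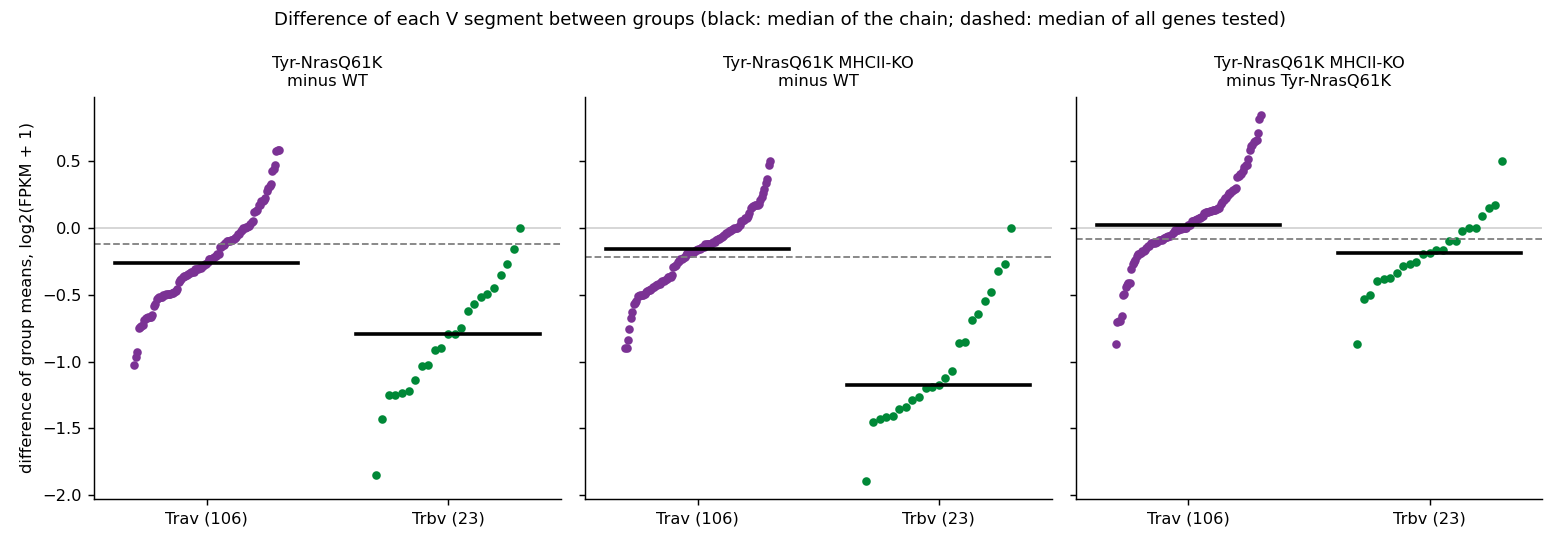
Difference between group means of log2(FPKM + 1) for each of the 106 Trav (purple) and 23 Trbv (green) segments in the 3 comparisons, sorted within each chain. Black lines are the medians of the chains and dashed lines the medians of all genes tested. Against WT the Trbv medians lie at -0.80 and -1.18, below the dashed lines at -0.12 and -0.22, and no single segment passed the test.

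Read as separation of the libraries, 15 of 23 Trbv segments had all 3 MHCII-KO libraries below all 3 WT libraries, where 23.4% of all genes tested did, and 0 had them above, where 7.97% of all genes did. For Tyr-NrasQ61K against WT 3 of 23 Trbv segments, Trbv5, Trbv17 and Trbv19, were separated in this way, next to 10.5% of all genes lower and 8.18% higher. Of the 106 Trav segments 6 lay below and 1 above WT in MHCII-KO, and 10 below and 1 above in Tyr-NrasQ61K, shares at or under those given for all genes. The segment counts cover every member, whereas the shares of all genes cover only genes that passed the filter. Segments at 0 in several libraries can hardly separate, and Trav copies with the same values were each counted. Between MHCII-KO and Tyr-NrasQ61K 0 Trbv segments were separated, and 2 Trav segments were lower and 4 higher in MHCII-KO, next to 3.07% and 0.729% of all genes. Without the 2 libraries that stood apart 15 of 23 Trbv segments were below WT in MHCII-KO and 4 in Tyr-NrasQ61K, next to 25.1% and 11.7% of all genes. The Trav segments above WT then numbered 9 and 6, next to 11.3% and 12.7% of all genes, and 22 Trav segments were higher and 14 lower in MHCII-KO than in Tyr-NrasQ61K, next to 5.72% and 22.3%, with 2 libraries left in each group.

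The beta segment with the lowest fold change in MHCII-KO against WT was Trbv17 (ENSMUSG00000076474, chromosome 6 from 41163062 to 41163556). It was at 8.24, 8.32 and 13.7 FPKM in WT, at 3.24, 3.24 and 7.41 in Tyr-NrasQ61K and at 3.98, 0.596 and 2.14 in MHCII-KO libraries. Both transgenic groups lay below WT throughout. By limma, the log2 fold change of Trbv17 against WT was -1.02 in Tyr-NrasQ61K (standard error 0.449, adjusted p = 0.328) and -1.89 in MHCII-KO (standard error 0.449, adjusted p = 0.232).

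Trbv5 (ENSMUSG00000076465, chromosome 6 from 41062332 to 41062803) had the lowest adjusted p against WT in Tyr-NrasQ61K. It was at 11.7, 6.47 and 11.8 FPKM in WT, at 0.802, 1.37 and 5.06 in Tyr-NrasQ61K and at 5.29, 2.36 and 2.43 in MHCII-KO libraries. No transgenic library reached the lowest WT library. By limma, the log2 fold change of Trbv5 against WT was -1.85 in Tyr-NrasQ61K (standard error 0.474, adjusted p = 0.212) and -1.35 in MHCII-KO (standard error 0.474, adjusted p = 0.329).

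Usage within the beta locus was spread over many segments, and no measure of it differed between groups by test. Trbv13-2 had the largest mean share of the summed Trbv level over the 9 libraries (8.95%), followed by Trbv16 (8.25%), Trbv1 (7.43%), Trbv3 (7.14%) and Trbv13-1 (6.82%). The leading segment was Trbv16, Trbv13-2 and Trbv13-3 in the WT libraries, Trbv13-2, Trbv14 and Trbv16 in the Tyr-NrasQ61K libraries and Trbv13-2, Trbv1 and Trbv3 in the MHCII-KO libraries, and it held 8.74% to 13.1% of the sum. The lead thus changed among the libraries of every group. Summed over its 3 members, the Trbv13 family led in all 9 libraries, with 23.5% ± 2.33 (SD, n = 3) in WT, 21.8% ± 2.60 (SD, n = 3) in Tyr-NrasQ61K and 21.5% ± 4.55 (SD, n = 3) in MHCII-KO.

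Trbv13-2 (ENSMUSG00000076469, chromosome 6 from 41121396 to 41121832) was at 19.2, 11.8 and 22.4 FPKM in WT, at 9.55, 4.60 and 14.9 in Tyr-NrasQ61K and at 10.4, 2.41 and 6.93 in MHCII-KO libraries. Its share was 9.18% ± 0.48 (SD, n = 3), 9.82% ± 1.89 (SD, n = 3) and 7.85% ± 1.93 (SD, n = 3) in the same order. The level was thus lower in MHCII-KO libraries than in every WT library, while the share overlapped. Trbv16 held 8.55% ± 1.38, 8.06% ± 0.76 and 8.15% ± 2.20 (SD, n = 3 each), with 9.59 to 21.4 FPKM in WT, from 4.101 to 15.1 in Tyr-NrasQ61K and from 2.35 to 10.3 in MHCII-KO. Trbv1 held 6.99% ± 1.84, 7.86% ± 1.81 and 7.45% ± 2.97 (SD, n = 3 each), and Trbv3 held 5.92% ± 2.16, 8.13% ± 2.77 and 7.35% ± 2.19 (SD, n = 3 each). Trbv13-1 was the steadiest of the leading segments by group mean, at 6.79%, 6.99% and 6.67%.

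**Figure D3:**
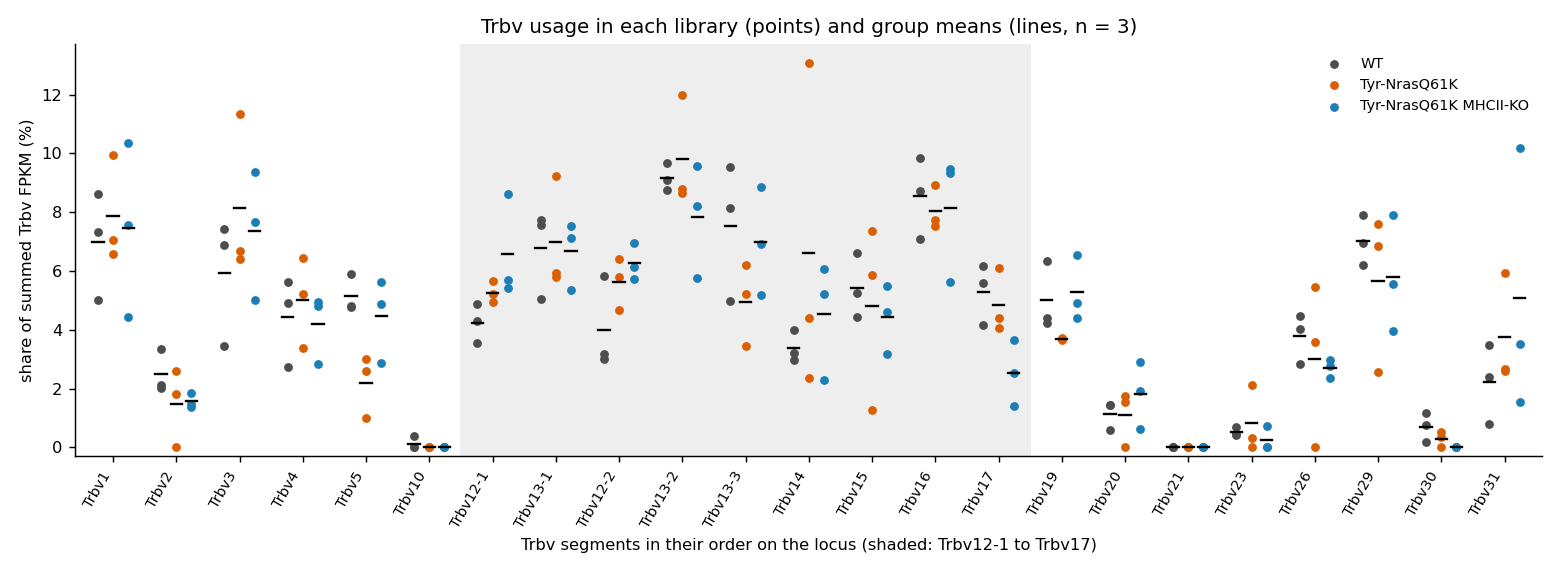
Share of each Trbv segment in the summed Trbv FPKM of its library, in the order of the segments on chromosome 6, for WT (grey), Tyr-NrasQ61K (orange) and Tyr-NrasQ61K MHCII-KO (blue) libraries, with group means as lines (n = 3). The shaded stretch from Trbv12-1 to Trbv17 holds 48.4% to 59.9% of the sum in every library, and Trbv14 in Tyr-NrasQ61K replicate 2 is the highest point (13.1%).

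The largest differences between group mean shares were those of Trbv14, Trbv5 and Trbv31, given as a description. Trbv14 held 3.40% in WT, 6.61% in Tyr-NrasQ61K and 4.52% in MHCII-KO, but the Tyr-NrasQ61K mean rested on replicate 2, with 13.1% against 2.37% and 4.39% in replicates 1 and 3. Trbv5 held 4.79% to 5.88% in WT, from 1.01% to 2.996% in Tyr-NrasQ61K and from 2.88% to 5.64% in MHCII-KO, so that the Tyr-NrasQ61K shares lay below those of WT. Trbv31, which lies at the far end of the locus and on the opposite strand to the other 22, held 0.81% to 3.49% in WT, from 2.61% to 5.94% in Tyr-NrasQ61K and from 1.56% to 10.2% in MHCII-KO, with its highest share in MHCII-KO replicate 2. At the low end, Trbv21 was listed at 0 in all 9 libraries and Trbv10, an annotated pseudogene, was above 0 in WT replicate 1 alone, at 0.758 FPKM. Trbv30 was at 0.247 to 2.33 FPKM in WT and was listed at 0 in all 3 MHCII-KO libraries and in Tyr-NrasQ61K replicate 2.

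The segments from Trbv12-1 to Trbv17 form a stretch that some inbred strains lack, with SJL and FVB/N among them. It covers chromosome 6 from 41113550 to 41163556 and holds 9 segments: Trbv12-1, Trbv12-2, Trbv13-1, Trbv13-2, Trbv13-3, Trbv14, Trbv15, Trbv16 and Trbv17. All 9 were above 0 in all 9 libraries, including the 3 WT libraries labelled FVB/NJ. Summed, they were at 112, 69.3 and 137 FPKM in WT, 43.96, 31.8 and 94.3 in Tyr-NrasQ61K, and 60.1, 20.3 and 49.05 in MHCII-KO libraries. Their share of the Trbv sum was 56.4%, 51.3% and 55.7% in WT, 55.2%, 59.9% and 55.9% in Tyr-NrasQ61K and 55.5%, 48.4% and 58.1% in MHCII-KO libraries. The stretch thus held from 48.4% to 59.9% of the Trbv sum in every library, WT included. The mean share was 54.5% ± 2.75 (SD, n = 3), 57.0% ± 2.52 (SD, n = 3) and 54.0% ± 5.04 (SD, n = 3), with an exact permutation p of 0.643 over the 3 groups (0.643 adjusted). The sequence closest to Trbv13-2 outside the stretch was Trbv29, with 58.5% identity in a comparison without gaps, and no segment of the stretch exceeded 59.4% with any segment outside it. The descent of the mice at this locus was not tested.

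Within the stretch Trbv13-3 was at 9.87, 10.99 and 23.4 FPKM in WT, at 2.75, 2.76 and 10.5 in Tyr-NrasQ61K and at 7.50, 2.18 and 7.49 in MHCII-KO libraries. The MHCII-KO libraries lay below WT, and Tyr-NrasQ61K replicate 3 overlapped with it. Trbv15 was at 13.1, 7.07 and 10.95 FPKM in WT, at 4.67, 0.668 and 12.4 in Tyr-NrasQ61K and at 5.01, 2.30 and 2.67 in MHCII-KO libraries. Trbv14 was at 4.04 to 9.80, 1.89 to 7.41 and 2.19 to 5.12 FPKM in the 3 groups, and they overlapped. Trbv12-1 and Trbv12-2, which share 88.2% of their coding bases, were at 6.59 to 8.75 and 4.05 to 11.6 FPKM in WT, 2.995 to 8.79 and 3.39 to 7.87 in Tyr-NrasQ61K and 3.61 to 6.17 and 2.41 to 6.64 in MHCII-KO. Together they held from 6.75% to 10.1% of the Trbv sum in WT, from 9.87% to 12.04% in Tyr-NrasQ61K and from 11.8% to 14.4% in MHCII-KO libraries. Their share was thus higher in every MHCII-KO library than in every WT library, which was noticed after the values were seen and was not tested.

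Alpha usage was spread more thinly, over more segments at lower levels. Of the 106 Trav segments, 52 were above 0 in all 9 libraries, 38 had a mean of at least 1 FPKM, and Trav5d-3 and Trav5n-3, both annotated as pseudogenes, were listed at 0 throughout. For Trbv these counts were 16 and 19 of 23. The leading segment held 2.47% to 5.69% of the Trav sum. Trav13-1 had the largest mean share (2.92%), followed by Trav13-4-dv7 (2.29%), Trav13n-2 (2.22%), Trav6-7-dv9 (2.20%) and Trav9-4 (2.20%). At these levels the replicates of a group differed by as much as the groups: Trav13-1 was at 6.21, 2.82 and 1.16 FPKM in WT, at 1.66, 1.82 and 3.88 in Tyr-NrasQ61K and at 4.80, 1.03 and 1.99 in MHCII-KO libraries. Trav13-4-dv7 was at 1.12 to 2.81 FPKM in WT, from 0.653 to 1.98 in Tyr-NrasQ61K and from 1.90 to 3.64 in MHCII-KO, and Trav9-4 at 0.773 to 2.05, 1.67 to 2.79 and 0.919 to 2.89.

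Trav13n-2 was at 1.32 to 2.80 FPKM in WT, from 0.809 to 3.64 in Tyr-NrasQ61K and from 1.12 to 2.21 in MHCII-KO libraries, and its identical copy Trav13d-2 at 1.32 to 2.92, 0.809 to 3.64 and 1.23 to 2.21. Trav6-7-dv9 was at 1.38 to 2.60, 2.04 to 2.29 and 0.786 to 2.9997 FPKM in the 3 groups. The largest differences between group mean shares were those of Trav6d-7 and Trav6n-7, which were listed at the same FPKM in every library, and of Trav13-4-dv7. Trav6d-7 held 1.08% ± 0.74 (SD, n = 3) of the Trav sum in WT, 2.92% ± 0.91 in Tyr-NrasQ61K and 1.88% ± 1.15 in MHCII-KO (SD, n = 3 each). Its values were 0.745, 2.28 and 0.729 FPKM in WT, 2.66, 1.68 and 2.40 in Tyr-NrasQ61K and 0.803, 1.69 and 1.91 in MHCII-KO libraries, and WT replicate 2 lay inside the Tyr-NrasQ61K range. Trav13-4-dv7 held 1.53% ± 0.88, 1.99% ± 1.42 and 3.34% ± 1.47 (SD, n = 3 each).

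**Figure D4:**
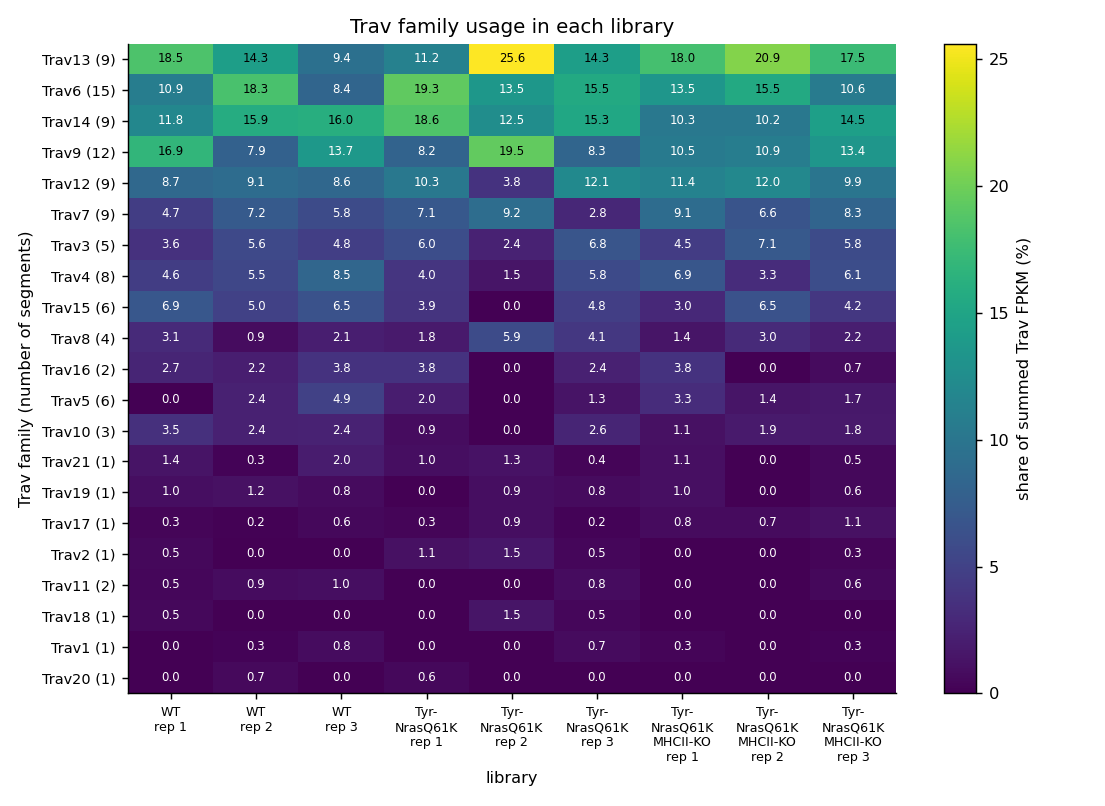
Share of each of the 21 Trav families in the summed Trav FPKM of each of the 9 libraries, in percent, with the copies of a family summed and its number of segments in brackets. Trav13, Trav6, Trav14 and Trav9 hold the largest shares, and Tyr-NrasQ61K replicate 2 has the highest Trav13 share (25.6%).

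With copies summed, 4 of 21 Trav families held the larger part of the alpha level: Trav13 with a mean share of 16.6%, Trav6 with 13.95%, Trav14 with 13.9% and Trav9 with 12.1%. The leading family was Trav13, Trav6 and Trav14 in the WT libraries, Trav6, Trav13 and Trav6 in the Tyr-NrasQ61K libraries and Trav13 in the MHCII-KO libraries. The Trav13 share was 18.5%, 14.3% and 9.43% in WT, 11.2%, 25.6% and 14.3% in Tyr-NrasQ61K and 18.0%, 20.9% and 17.5% in MHCII-KO, so that the WT libraries alone differed among themselves by more than the group means did. Segments without a copy letter held 40.2% to 50.8% of the Trav sum, the d copies 28.6% to 35.8% and the n copies 20.6% to 25.3%. The 10 segments that also serve the delta chain of gamma-delta T cells, named with dv, held 12.8% ± 1.32 (SD, n = 3) in WT, 10.4% ± 0.48 (SD, n = 3) in Tyr-NrasQ61K and 11.9% ± 1.11 (SD, n = 3) in MHCII-KO. The part of their level that came from delta chains cannot be told apart here. These 10 were picked by name. Trav15n-2, which is not among them, has the coding sequence of Trav15d-2-dv6d-2 and the same FPKM in all 9 libraries. The share thus depends on how reads were divided between such copies.

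Segments of the innate-like T cells were near the lower limit of the table. Trav11, with which invariant natural killer T cells build their alpha chain, was listed at 0.275, 0.524 and 0.527 FPKM in WT, at 0, 0 and 0.555 in Tyr-NrasQ61K and at 0, 0 and 0.314 in MHCII-KO libraries. Its copy Trav11d was listed at 0.254, 0.484 and 0.594 FPKM, at 0, 0 and 0.5002, and at 0, 0 and 0.291. Both copies were thus above 0 in the 3 WT libraries and listed at 0 in 4 of the 6 transgenic libraries, and neither passed the filter for testing. Zbtb16, the transcription factor of these cells, and Klrb1c, a receptor they share with NK cells, together were at 4.63 to 6.91 FPKM in WT, from 2.26 to 3.49 in Tyr-NrasQ61K and from 2.21 to 3.76 in MHCII-KO libraries. Both transgenic groups lay below WT in this sum, which was not tested. Of all genes tested, 10.5% in Tyr-NrasQ61K and 23.4% in MHCII-KO were separated from WT in that direction. Trav1, the segment of mucosal-associated invariant T cells, was listed at 0, 0.308 and 0.928 FPKM in WT, 0, 0 and 0.942 in Tyr-NrasQ61K and 0.357, 0 and 0.279 in MHCII-KO, and the groups overlapped.

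The evenness of usage lay between 0.825 and 0.950 in all libraries and both chains. It was measured as the Shannon entropy of the shares divided by its largest possible value, so that 1 means equal use of all segments of the chain. Trbv evenness was 0.920, 0.917 and 0.917 in WT, 0.903, 0.854 and 0.920 in Tyr-NrasQ61K and 0.913, 0.905 and 0.890 in MHCII-KO libraries. The MHCII-KO values lay below all WT values, by 0.015 on average, and Tyr-NrasQ61K replicate 3 lay above them. Over the 3 groups the exact permutation test gave p = 0.350 (0.625 adjusted). Trav evenness was 0.911, 0.943 and 0.950 in WT, 0.915, 0.825 and 0.937 in Tyr-NrasQ61K and 0.929, 0.880 and 0.929 in MHCII-KO libraries (exact permutation p = 0.475 over the 3 groups, 0.625 adjusted). Without the 2 libraries that stood apart the exact permutation p over the 3 groups was 0.238 for Trbv and 0.857 for Trav. The lowest values of both chains were those of Tyr-NrasQ61K replicate 2, which also had the most segments listed at 0, 41 Trav and 6 Trbv. Over the whole table this library had 22546 entries above 0 and the other 8 had 23457 to 25785. MHCII-KO replicate 2, second in Trav segments at 0, had 24794 and was not low by this count. The part of read depth in the evenness of these libraries was not tested.

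**Figure D5:**
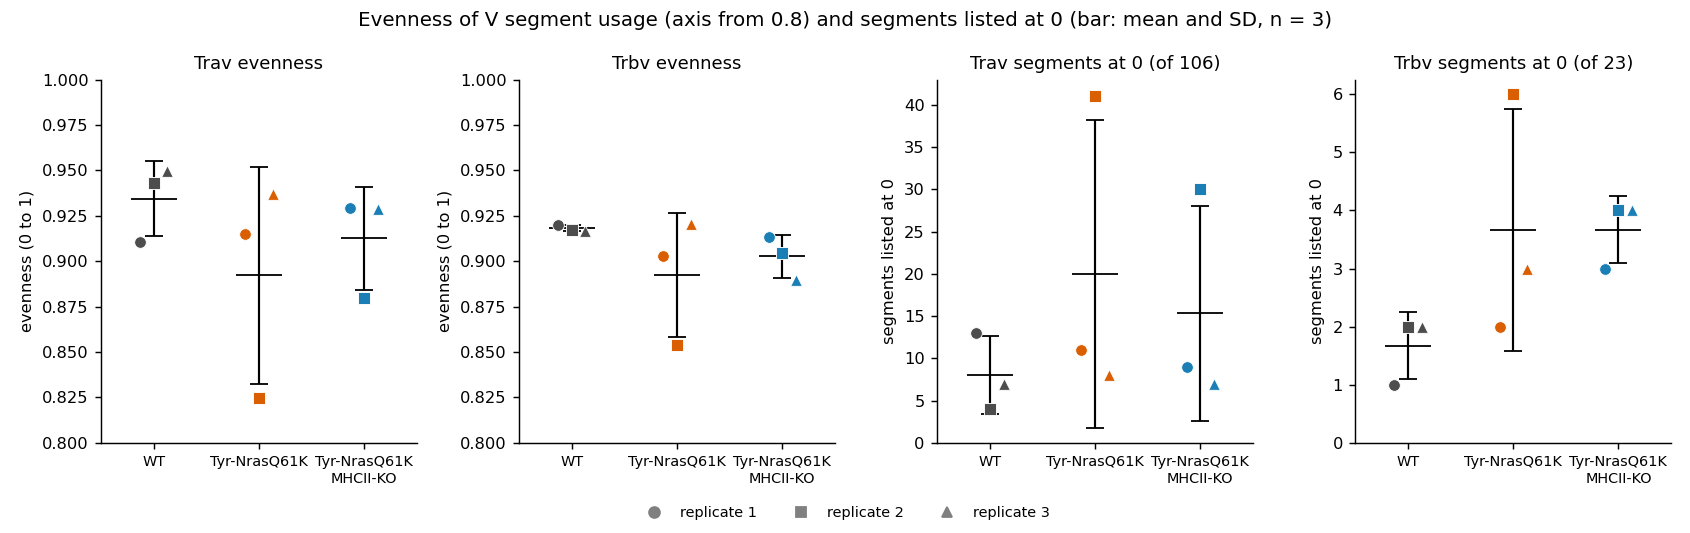
Evenness of Trav and Trbv usage (vertical axis from 0.8 to 1) and number of segments listed at 0 in each library; symbols give the replicate, and bars the mean and SD of 3 libraries. Tyr-NrasQ61K replicate 2 has the lowest evenness of both chains (0.825 and 0.854) and the most segments at 0 (41 and 6).

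Libraries of a group were not closer to each other in usage, by test, than libraries of different groups. The Bray-Curtis distance between 2 share profiles, which is 0 for equal and 1 for disjoint usage, averaged 0.189 within and 0.187 between groups for Trbv and 0.335 within and 0.342 between groups for Trav. The one-sided exact permutation p was 0.536 for Trbv (0.625 adjusted) and 0.246 for Trav (0.625 adjusted). Mean distances to the other libraries were largest for Tyr-NrasQ61K replicate 2 in both chains (0.456 for Trav and 0.255 for Trbv), followed by MHCII-KO replicate 2 (0.367 and 0.237), and lay between 0.295 and 0.337 for Trav and between 0.155 and 0.188 for Trbv in the other 7 libraries. The libraries farthest from the others were thus these 2.

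Beside these results, markers of other cell types also moved with the groups. The B cell markers Ms4a1, Cd79a, Cd79b and Pax5 summed to 348 to 468 FPKM in WT, from 159 to 442 in Tyr-NrasQ61K and from 189 to 335 in MHCII-KO libraries, so that all MHCII-KO libraries lay below WT, as for the Trbv sum. Dct, Tyr, Tyrp1, Pmel, Mlana and Mitf summed to 3.64 to 5.63 FPKM in WT, from 11.96 to 16.8 in Tyr-NrasQ61K and from 6.58 to 11.5 in MHCII-KO libraries. Of the 6 gamma-delta T cell markers listed, 2 were in the table, Sox13 and Blk, which B cells express too, and they summed to 20.4 to 29.3 FPKM. Their part in the lower Trbv level was not tested.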

How the data were processed

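Total RNA of 9 libraries was sequenced on an Illumina Genome Analyzer IIx, all on 1 flow cell. The authors deposited 1 table of FPKM per gene and library, and the submitters' processing notes name TopHat, Cufflinks, Cuffdiff and the build mm10, with versions not given in the sources used here. The depth per library is unknown from FPKM. How Cufflinks shared reads between near-identical Trav copies is not stated. The table had 37819 entries, of which 18 were left out because they gave more than 1 value for a library. Of the 129 V segments, 51 matched GENCODE M21 by identifier, 77 by symbol, and 1 of the 2 entries named Trav9n-1 was not matched. Annotation, coordinates and sequences come from GENCODE M21.

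Genes with at least 1 FPKM in at least 3 libraries, 16587 in all, were fitted as log2(FPKM + 1) by limma 3.58.1 in R 4.3.3, with 1 mean per group, a variance trend and Benjamini-Hochberg adjustment. A pseudocount of 1 understates changes of low segments. Sums (as log2), shares, evenness and distances were computed per library in Python 3.11.15 over all members, with exact permutation tests over the libraries: 1680 assignments to 3 groups, 20 for a pair. The computations were tested on simulated data. Segments named are the 5 with the highest mean share per chain, the stretch from Trbv12-1 to Trbv17, Trav11, Trav11d, Trav1 and the 3 per chain with the largest differences between group mean shares. Trbv5, Trbv10, Trbv19, Trbv21, Trbv29, Trbv30, Trav13d-2, Trav13-3, Trav15d-2-dv6d-2, Trav15n-2, Trav5d-3, Trav5n-3 and the sum of Trbv12-1 and Trbv12-2, where not covered by this rule, were named after their values were seen. The members and lists were chosen with earlier results of these data known. Alternatives were pseudocount, filter, scaling, copies summed, segment length, replicate block and leaving out libraries. Separation of groups and sums per CD3 without 2 libraries were added after seeing the data. Columns of the authors' own comparisons were not used. The sum of B cell markers covers 4 of 5 genes listed, and the other is not reported here.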

Additional observations from a re-analysis of the deposited data

How the results depend on the processing

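Whether equal replicate numbers in the labels pair the libraries is not stated and was not settled. Same-numbered libraries correlated at 0.05, 0.11 and 0.02 between Tyr-NrasQ61K and WT, in deviations from the group means. The values were 0.09, 0.09 and -0.04 between MHCII-KO and WT, and 0.15, 0.33 and 0.03 between the transgenic groups. Libraries of different numbers correlated at -0.27 to 0.16. With the number as a replicate block, limma called 2 segments lower in Tyr-NrasQ61K than in WT (Trbv13-1 and Trbv19) and 4 in MHCII-KO (Trbv1, Trbv13-1, Trbv13-2 and Trbv17), and calls over all genes rose from 12 to 627 and from 11 to 666 lower. Of the 3 libraries of a group, 2 of Tyr-NrasQ61K and 2 of MHCII-KO correlated best with their own number in WT. Between the transgenic groups it was 1 of 3, and a batch shared by number was not tested. No other alternative called a segment. Calls over all genes in Tyr-NrasQ61K against WT were 27 higher and 12 lower, with median-ratio scaling 46 and 24, with quantile normalization 26 and 21 and with a pseudocount of 0.1 they were 20 and 4. Of 343 comparisons of a result with another setting, the separation of groups not counted, 315 left the outcome unchanged by the rule used. Direction entered that rule only for pairs of groups and for distances between profiles. Tests of a pair of groups cannot give p under 0.1, so their side of the 0.05 threshold was fixed in advance. The count of 315 therefore does not measure how robust the results are.

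Per summed CD3, the Trav difference from WT turned to 0.44 and 0.61. Leaving out 1 library moved the p of the Trbv sum over 3 groups between 0.0464 (without Tyr-NrasQ61K replicate 3) and 0.268. For MHCII-KO minus Tyr-NrasQ61K it moved the log2 difference between -0.23 and 0.46 for Trav and between -0.67 and 0.16 for Trbv, and the evenness difference between -0.013 and 0.043 for Trav and between -0.0088 and 0.024 for Trbv. The share of the Trbv12-1 to Trbv17 stretch in MHCII-KO minus WT lay between -2.51 and 2.36 percentage points, and in MHCII-KO minus Tyr-NrasQ61K between -5.04 and -0.17. The between-group minus within-group distance lay between -0.0060 and 0.028 for Trav and between -0.018 and 0.012 for Trbv. Without both libraries that stood apart, the Trbv evenness difference between the transgenic groups was -0.0098, the share of the stretch differed by 2.36 from WT and by 1.27 between the transgenic groups, and the distances were -0.0055 for Trav and 0.0038 for Trbv. With the copies of a family summed the distances were -0.0023 and 0.00011. None of these differences had passed its test, and the causes were not tested.

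Low values, unknown depth and identical copies limit what single Trav segments can show.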
